A study of Macaca fascicularis with 605 samples.

Results

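Extraembryonic mesenchyme and embryonic mesoderm were compared in single cells of post-implantation embryos of the cynomolgus monkey (Macaca fascicularis), profiled by SC3-seq, which sequences tags from the 3' ends of amplified cDNA. The 83 cells described here came from 605 cells in the whole series and were chosen by transcript levels in RPM, the reads of a gene scaled to the total reads of the cell. The cells of embryonic days (E) 13, 16, 17 and 20, 345 in all, were searched for mesenchyme. A cell was taken as mesenchyme when POU5F1 was under 50 RPM, MESP1 under 5 RPM, and the mean log2(RPM + 1) of COL1A2, COL3A1, COL6A3 and LOX was at least 4 and above the same mean of APOA1, TTR, FOXA1 and APOB. The cells of E16 and E17 were searched for mesoderm, which was taken at MESP1 of at least 50 RPM and TFAP2C under 50 RPM. This gave 54 mesenchyme cells, 34 at E13 (30.1% of the cells of that day) and 20 at E16 (11.7%), with 0 of 56 cells of E17 and 0 of 5 cells of E20. It gave 29 mesoderm cells, 26 at E16 (15.2%) and 3 at E17 (5.4%). All groups were untreated embryo cells that differed by embryonic day, and the labels named no genotype, cell type or animal. Per the labels' protocols, the tissue was cut out of the implantation site as a piece described as holding epiblast, amnion, hypoblast and yolk sac endoderm, and mesenchyme was not named in it. The shares of cells therefore also carry the hand dissection.

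Extraembryonic mesenchyme is the loose connective tissue that lines the yolk sac, the amnion and the chorion, and in primates it is found before a primitive streak has formed. It secretes a matrix of collagens, proteoglycans and fibronectin around which the extraembryonic membranes and their first vessels are built. Embryonic mesoderm arises later, when epiblast cells leave through the streak under the T-box factors T (TBXT) and EOMES and the factors MIXL1 and MESP1. Both tissues are mesodermal, and which genes they share and which they do not is the question the comparison addresses.

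The 11 gate genes chose the cells, and their values are given as a description only. The collagen gate mean was 6.92 to 11.02 (median 8.78) in E13 mesenchyme and 4.11 to 9.59 (median 7.15) in E16 mesenchyme. In mesoderm it was 0.49 to 5.24 (median 2.14) at E16 and 0.00 to 1.86 at E17. Among cells that met the other conditions of the mesenchyme gate, those nearest the threshold were of E16, with 4.11, 4.26 and 4.28 just inside and 3.81, 3.78 and 3.76 just outside. Among cells of E16 and E17 with TFAP2C under 50 RPM, the lowest MESP1 levels inside the mesoderm gate were 60.6 and 66.9 RPM, and the highest levels outside were 47.7 and 42.8 RPM. No E13 cell but 7 E16 cells had a collagen gate mean between 4 and 6, so the edge of the mesenchyme gate was filled at E16 only. A further 19 cells of E16 reached the collagen gate mean of 4 with POU5F1 at 50 RPM or above and were not taken, against 2 cells of E13. The highest collagen gate mean among the E16 cells so left out was 11.06, above that of every E16 cell taken. The POU5F1 limit thus removed more cells with high collagen at E16 than at E13. Of the mesoderm cells, 5 of the 26 at E16 also reached a collagen gate mean of 4.

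**Figure D1:**
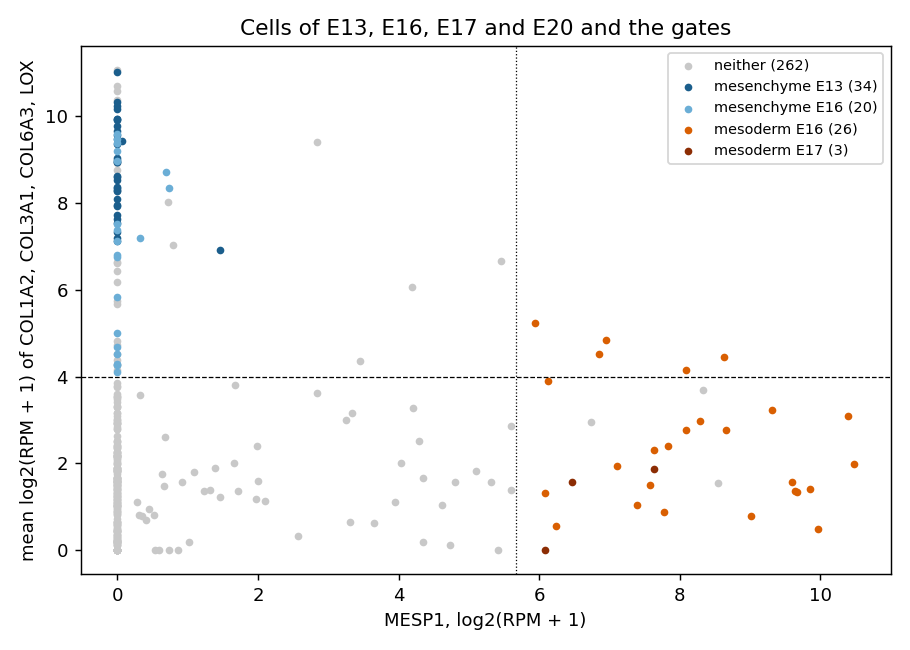
Each point is 1 of the 345 cells of E13, E16, E17 and E20, with the log2(RPM + 1) of MESP1 on the x axis and the mean log2(RPM + 1) of the 4 collagen gate genes on the y axis. The dashed line is the mesenchyme gate mean of 4 and the dotted line the mesoderm level of 50 RPM; E13 mesenchyme starts at 6.92, and the 7 mesenchyme cells between 4 and 6 are of E16.

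Read depth, recovered from the value of 1 read in 77 of the 83 cells, was 742697 to 19696118 reads per cell in E13 mesenchyme and 1392625 to 11246768 in E16 mesenchyme. It was 826334 to 9625505 in E16 mesoderm and 1045413 to 2577964 in E17 mesoderm. Genes detected above 0 RPM had medians of 9228, 9369, 9969 and 8674 a cell in the same order. Cells carry a code with the letters MS in their titles whose meaning the labels do not give. The 34 E13 mesenchyme cells had 5 codes, the 20 E16 mesenchyme cells 7, the 26 E16 mesoderm cells 4, and MS101 was the code with at least 3 E16 cells of both classes, 9 of mesenchyme and 12 of mesoderm.

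Markers of the 2 classes outside the gates separated them in part. DCN (decorin, a collagen-binding proteoglycan) was 0 to 1947 RPM (median 267) in E13 mesenchyme, 0 to 668 (median 24.1) in E16 mesenchyme, 0 to 19.4 (median 0) in E16 mesoderm and 0 in the 3 cells of E17. BNC1 (a zinc-finger protein) reached 10 RPM in 15 of 34 cells of E13, 13 of 20 mesenchyme cells of E16 and 3 of 26 mesoderm cells of E16. HAPLN1, a link protein that ties hyaluronan to proteoglycans, was 306 to 3546 RPM (median 1022), 33.03 to 8654 (2167) and 0 to 2679.8 (378) in E13 mesenchyme, E16 mesenchyme and E16 mesoderm, so that the cells of the classes overlapped. The fourth marker, DDR2 (a collagen receptor kinase), did not separate the classes: its mean was 36.6 RPM in E13 mesenchyme against 342 in E16 mesenchyme, 55.1 in E16 mesoderm and 142.8 in E17 mesoderm. None of the 4 passed the test described below; the adjusted p of limma was 0.0511 for DCN, 0.178 for BNC1, 0.358 for HAPLN1 and 0.908 for DDR2.

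Markers of streak and mesoderm (T, EOMES, MIXL1, TBX6, MESP2, LHX1, CDX1 and EVX1) summed to 0.0 to 149.2 RPM per cell in E13 mesenchyme and 1.03 to 628.3 RPM in E16 mesenchyme, against 469.9 to 7104.2 RPM in E16 mesoderm. Endoderm markers outside the gate (APOA2, APOC3, FOXA2, HNF4A, AFP and SOX17) stayed at or below 6.74 RPM per cell in E13 mesenchyme and 41.2 RPM in E16 mesenchyme. In 1 E16 mesoderm cell the mean log2(RPM + 1) of the 4 endoderm gate genes was 9.30, and endoderm markers summed to at most 445.1 RPM per cell in that class. Immune markers (PTPRC, CD74, LYZ, CD3E and NKG7) summed to at most 76.1 RPM in any mesenchyme cell, and PTPRC, CD3E and NKG7 were listed at 0 in all of them. The 8 markers fixed for maternal uterine stroma summed to a median of 237.0 RPM in E13 mesenchyme, and 2 of them had means of at least 10 RPM. At least 2 reached 50 RPM in 6 of 34 E13 and 1 of 20 E16 mesenchyme cells. HOXA10 was present in every E13 cell (below) and HOXA11 reached 10 RPM in 26 of 34. The 5 markers that are not HOX genes (PGR, ESR1, PRL, IGFBP1 and DES) summed to at most 166.1 RPM at E13 and 2.87 RPM at E16. Their median sum was 0 RPM on both days. Of these, PGR and PRL were listed at 0 in all 54 mesenchyme cells. A maternal origin was not tested.

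Amnion and trophoblast markers were the exception. Of the 8 markers (GATA3, TFAP2A, ISL1, GABRP, VTCN1, KRT7, CGA and CDX2), at least 2 reached 50 RPM in 9 of the 20 E16 mesenchyme cells, 0 of the 34 E13 mesenchyme cells and 5 of the 26 E16 mesoderm cells. Their summed level was 0.30 to 667.8 RPM (median 31.3) in E13 mesenchyme and 6.10 to 58345.0 RPM (median 192.9) in E16 mesenchyme. It was 13.3 to 863.0 RPM in E16 mesoderm and 0.81 to 96.6 RPM in E17 mesoderm. Of the 7 E16 cells with a collagen gate mean under 6, 5 carried 2 such markers, against 1 of the 7 with a mean of 8 or more. Of the 4 mesenchyme markers outside the gate (DCN, HAPLN1, BNC1 and DDR2), at least 2 reached 50 RPM in 23 of 34 E13 and 19 of 20 E16 mesenchyme cells, and in 8 of 26 and 1 of 3 mesoderm cells. Several results for E16 are given with and without the 9 cells that hold amnion or trophoblast markers. Of these 9, the cells with gate means of 5.0, 7.11 and 7.37 stood apart. CGA was 673.7, 1495.7 and 56281.4 RPM in them, and BNC1 was 0 RPM. TEK was 0, 4.31 and 7.58 RPM, PITX1 11.3, 46.7 and 3.97 RPM, and DDR2 0.38, 0 and 4.69 RPM. DCN was 83.9, 313.8 and 261.4 RPM. TFAP2C, limited to under 50 RPM by the mesoderm gate but not by the mesenchyme gate, was 149.7, 15.08 and 513.1 RPM. They met the gate and stay in the E16 mesenchyme unit, where they hold its lowest levels of TEK and PITX1.

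**Figure D2:**
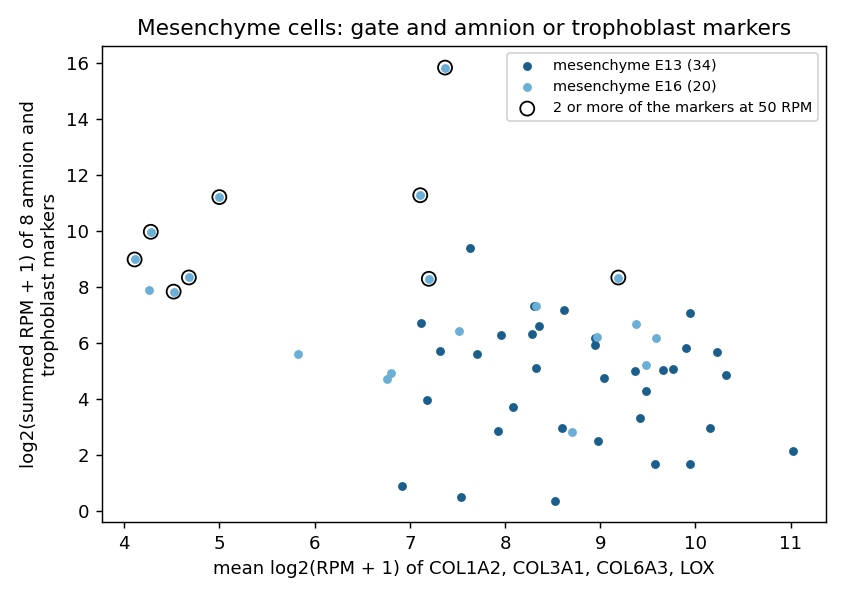
Each point is 1 of the 54 mesenchyme cells, with the collagen gate mean in log2(RPM + 1) on the x axis and the log2 of the summed RPM + 1 of 8 amnion and trophoblast markers on the y axis. Circles mark the cells with at least 2 markers at 50 RPM: 9 of 20 at E16, 5 of them with a gate mean under 6, and 0 of 34 at E13.

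For the test, the cells of a class and a day were averaged into a unit, since cells of a day may share an embryo. The 2 mesenchyme units (E13 and E16) were set against the 2 mesoderm units (E16 and E17) with limma on log2(mean RPM + 1). Of 8819 genes tested outside the gate, 22 passed an adjusted p of 0.05 (0.249%), 13 of them higher in mesenchyme (0.147%) and 9 lower (0.102%). For 1835 genes (20.8%) both mesenchyme units lay above both mesoderm units, and for 2193 (24.9%) both lay below. With 2 units a class the p-values measure the spread between these 4 units, which mixes day and class, and genes that vary with the gate genes among cells must differ. The 22 genes had the same direction under all alternatives in which they were tested, but their call did not always hold: edgeR on recovered reads called 0 genes (893 at an unadjusted p under 0.05), and without the 3 cells of E17 mesoderm 6 of the 15 still tested passed, none of them on the lower side. Without the 9 amnion-marker cells all 22 passed. Genes under 10 RPM in both units of 1 class entered the test through the other class alone and had to differ. Among the passing genes named below, these were LUM, POSTN, CCDC80, PITX1, SULT1C4, ENPEP and ADAM12 on the higher side. On the lower side they were MIXL1, KHDC3L, DPPA5, UCP2 and DLL3. For these genes the adjusted p is no independent evidence of a difference.

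Genes of the extracellular matrix led the higher side. Lumican (LUM), a proteoglycan that spaces collagen fibrils, was 0.47 to 5566 RPM (median 979) in E13 mesenchyme and 0 to 6005 (median 745) in E16 mesenchyme. In mesoderm it was 0 to 34.8 RPM (median 0.13) at E16 and 0 in the 3 cells of E17. Of the 54 mesenchyme cells, 45 exceeded the highest mesoderm cell, and LUM rose by 9.27 ± 0.72 (log2, SE; limma adjusted p = 0.0287). Periostin (POSTN), a matrix protein of connective tissue, ran from 0 to 3932 RPM (median 1011) at E13 and 0 to 7161 (median 329) at E16, against at most 67.6 RPM in mesoderm. Its difference was 8.95 ± 0.84 (adjusted p = 0.0369), and 48 of 54 cells lay above all mesoderm cells. CCDC80, a secreted protein that binds matrix, had means of 647 RPM at E13 and 182 RPM at E16 against 1.84 and 0 RPM in mesoderm (7.67 ± 0.85, adjusted p = 0.0369). Since E17 mesoderm was at 0 for these 3 genes, their fitted differences depend on the pseudocount of 1, and with a pseudocount of 10 that of LUM was 6.81 and that of POSTN 6.66. Both LUM and POSTN had single mesenchyme cells at or near 0, so the separation held for the units and most cells rather than for each cell.

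**Figure D3:**
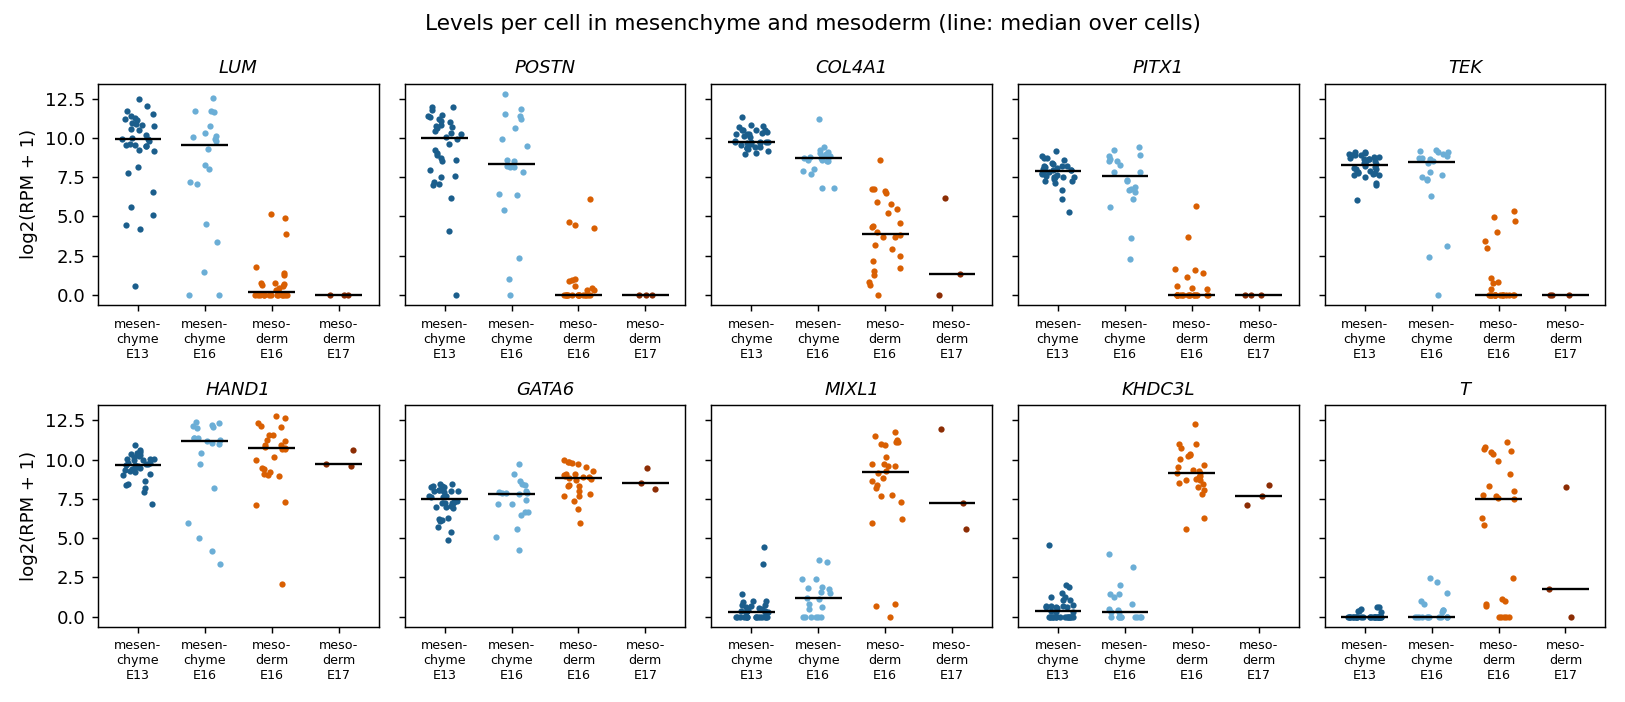
Each point is 1 cell and each line the median over the cells of a class and day, in log2(RPM + 1); the 4 columns hold 34, 20, 26 and 3 cells. LUM, POSTN, COL4A1, PITX1 and TEK lie higher in mesenchyme, MIXL1, KHDC3L and T in mesoderm, and HAND1 and GATA6 are present in both.

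Of 13 basement membrane genes tested, 2 passed, both higher (background 0.147%). In 11 both mesenchyme units lay above both mesoderm units (background 20.8%). The list median was 2.78 against -0.02 over all genes tested. Mesenchyme was chosen by collagen and LOX levels, so matrix genes that vary with these were set apart by the choice. The direction of this list and of the further matrix lists below is therefore no independent evidence. COL4A1, the main network collagen of basement membranes, was 501 to 2542 RPM (median 863) at E13 and 109.3 to 2387 (median 420.5) at E16. In E16 mesoderm it was 0 to 382 (median 13.97), overlapping with a few mesenchyme cells, and the fitted difference was 4.43 ± 0.48 (adjusted p = 0.0369). COL18A1, whose C-terminal end is endostatin, was 591 to 1957 RPM (median 1162) at E13, 41.2 to 2273 (median 1052) at E16 and 0 to 328 (median 57.9) in E16 mesoderm. It rose by 3.31 ± 0.29 (adjusted p = 0.0323), with 50 of 54 cells above the highest mesoderm cell. NID2, a linker between laminin and collagen IV, had means of 893 and 1346 RPM in mesenchyme against 29 and 3.88 RPM in mesoderm without passing (adjusted p = 0.0511). The laminin chains differed less: LAMB1 had 263 and 461 RPM against 102.8 and 86.6, and the units of LAMA5 overlapped, with 10.8 and 177 RPM against 109.96 and 26.6.

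Among 6 fibrillar and associated collagens tested outside the gate, 0 passed and 6 had both mesenchyme units above both mesoderm units (background 20.8%), with a median of 5.05. These genes come from the same cells as the gate collagens, and their direction is no independent evidence. COL1A1 had means of 1633 ± 859 RPM (SD over 34 cells) and 1097 ± 1076 (20 cells) in mesenchyme, against 61.9 ± 97.02 (26 cells) and 13.4 ± 20.4 (3 cells) in mesoderm (adjusted p = 0.0511). COL6A1 was at least 1115 RPM in every E13 cell, and 51 of 54 mesenchyme cells exceeded the highest mesoderm cell at 287 RPM. The smallest difference of the list was that of COL5A1, a fibril-nucleating collagen, at 1.92 ± 0.36 (adjusted p = 0.118).

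The enzymes that fold and crosslink collagen had a lower median than the collagens. Of 16 tested, 0 passed, 10 had mesenchyme units above mesoderm units (background 20.8%) and 1 had them below (24.9%), with a median of 1.38. SERPINH1, the collagen chaperone HSP47, had means of 2103 and 1328 RPM in mesenchyme and 519 and 506 RPM in mesoderm, so it was well above 0 in both classes. PLOD2, a lysyl hydroxylase, stood further apart with 254 and 120.8 RPM against 20.54 and 5.68 (adjusted p = 0.111), and LOXL1, a crosslinking oxidase related to the gate gene LOX, overlapped with 138.1 and 302 RPM against 183 and 324.

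Proteoglycans and glycoproteins divided. Of 16 tested, 2 passed higher (LUM and POSTN, background 0.147%). Both entered the test through mesenchyme alone, so their passing is no independent evidence. Of the 16, 11 had mesenchyme units above (background 20.8%) and 2 below (24.9%), and the median was 1.98. TGFBI, a matrix adhesion protein, had means of 299.9 and 537 RPM against 15.8 and 0 RPM (adjusted p = 0.122). Fibronectin (FN1) was high in E13 mesenchyme at 834 to 12367 RPM (median 4912) but reached 12151 RPM in a mesoderm cell as well. HAS2, the main hyaluronan synthase of the embryo, went the other way, with medians of 96.1 and 121.97 RPM in mesenchyme and 514 and 554 RPM in mesoderm (-1.93 ± 0.40, adjusted p = 0.152). With HAPLN1, transcripts for hyaluronan synthesis and linkage were thus found in both classes. Thrombospondin 2 (THBS2) was at means of 0.041 and 0.67 RPM in mesenchyme and 29.96 and 75.8 in mesoderm (adjusted p = 0.152).

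Matrix receptors, proteases and inhibitors gave 0 passing genes of 13 and of 10 tested. The integrin chain ITGAV, which pairs into receptors for fibronectin and periostin, had 379 and 216.8 RPM in mesenchyme against 56.5 and 53.2 in mesoderm (adjusted p = 0.077). Of the inhibitors, TIMP1 had 829 and 284 RPM against 49.4 and 96.9, and of the proteases ADAMTS1 had 212.7 and 144.9 RPM against 2.97 and 0. The gelatinase MMP2 had its highest unit mean in E16 mesoderm (287 RPM, against 58.9 and 209.7 in mesenchyme and 163.8 at E17), and SERPINE2, a serpin, was lower in both mesenchyme units (53.6 and 30.7 against 216.2 and 167.7 RPM). The metalloproteinase ADAM12, named from all genes rather than from a list, rose by 3.86 ± 0.46 (limma adjusted p = 0.0478), from means of 8.82 and 7.65 RPM in mesoderm to 145.8 and 120.6 RPM.

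Of the 22 passing genes, 3 have no symbol and are not described. The remaining ones on the higher side were PITX1, ENPEP, IL6ST, DPYSL3, PPIC and SULT1C4. PITX1, a homeodomain factor known from hindlimb and pituitary, was at least 37.8 RPM in all 34 E13 cells (median 238.4, highest 564). In E16 mesenchyme it was 3.97 to 675 RPM (median 193), and in mesoderm it reached 10 RPM in 2 of 26 cells at E16 and 0 of 3 at E17. The difference was 7.01 ± 0.77 (limma adjusted p = 0.0369), and 50 of 54 cells exceeded the highest mesoderm cell. ENPEP, the aminopeptidase that cleaves angiotensin II, was 34.8 to 759.7 RPM at E13, 2.32 to 1555 in E16 mesenchyme and at most 83.2 in mesoderm. IL6ST, the shared signal chain gp130 of the interleukin-6 cytokine receptors, was at least 230.8 RPM in every E13 cell and 116.6 RPM in every E16 mesenchyme cell, with a mesoderm range of 0 to 248.1 RPM at E16. ENPEP and IL6ST rose by 5.54 ± 0.40 and 4.03 ± 0.42 (adjusted p = 0.0287 and 0.0369). DPYSL3, a cytoskeletal regulator, PPIC, a cyclophilin, and SULT1C4, a sulfotransferase, rose by 4.18 ± 0.48, 3.37 ± 0.38 and 7.12 ± 0.73. PITX1 and SULT1C4 were also at 0 in E17 mesoderm, and with a pseudocount of 10 their differences were 4.51 and 4.34. Of the further genes the naming rule returned, IGFBP3 and HGF did not pass and DEFB1, a defensin, rested on 3 E16 cells at 10 RPM or more, the highest at 17223 RPM. Without the 9 amnion-marker cells, the E16 mean of DEFB1 was 0.47 RPM and its difference between the classes at E16 was -0.38, against 9.75 with them.

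Transcription factors of lateral and extraembryonic mesoderm gave 1 passing gene of 24 tested (PITX1, background 0.147%). PITX1 entered the test through mesenchyme alone, so its passing is no independent evidence. Of the 24, 10 lay above (background 20.8%) and 3 below (background 24.9%), with a median of 1.80. HAND2, a basic helix-loop-helix factor of heart and limb, was at least 17.3 RPM in every E13 cell and at 10 RPM or more in 17 of 20 E16 mesenchyme cells, but in 3 of 26 and 0 of 3 mesoderm cells. TCF21, a factor of coelomic and stromal cells, reached 10 RPM in 25 of 34, 11 of 20, 1 of 26 and 0 of 3 cells in the same order. So HAND2 and TCF21 marked most mesenchyme cells of E13 and few mesoderm cells, without passing the test (adjusted p = 0.189 and 0.152). TBX20 and NR2F2 also had higher means in both mesenchyme units, with 150.4 and 141.4 against 18.97 and 45.1 RPM and with 46.1 and 135.9 against 9.12 and 0 RPM. By cells, TBX20 reached 10 RPM in 10 of 26 and 2 of 3 mesoderm cells, and NR2F2 in 5 of 26 and 0 of 3. The forkhead gene FOXC1 was lower in both mesenchyme units (1.12 and 0.01 against 37.9 and 17.2 RPM, adjusted p = 0.294).

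Several factors of this list were present in both classes. HAND1, required for extraembryonic mesoderm and heart in the mouse, was 140.7 to 1902 RPM (median 815) in E13 mesenchyme and 9.15 to 5321 (median 2369.9) in E16 mesenchyme. It was 3.18 to 6896 RPM (median 1676) in E16 mesoderm, and the 3 cells of E17 had 778, 855 and 1571 RPM. The classes overlapped, and the fitted difference was -0.08 ± 0.55 (limma adjusted p = 0.964). GATA6 was at least 28.6 RPM in every mesenchyme cell of E13, 17.98 RPM at E16 and 62.1 RPM in mesoderm of E16, with medians of 179, 226.9 and 456 RPM. Both mesenchyme units lay below both mesoderm units of GATA6 (-1.14 ± 0.28, adjusted p = 0.201), with 5 of 29 mesoderm cells above every mesenchyme cell. GATA4, which acts with it in mesoderm and endoderm, had means of 186.7 and 55.7 RPM against 94.5 and 132.3. The units of GATA4 overlapped between the classes.

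On the lower side stood the genes of gastrulation. MIXL1, a homeobox gene of the primitive streak, was at most 20.9 RPM in E13 mesenchyme and 11.1 RPM in E16 mesenchyme. In mesoderm it was 0 to 3429.6 RPM (median 593) at E16 and 47.8, 152.1 and 3867 RPM at E17, and 26 of 29 mesoderm cells exceeded every mesenchyme cell. It fell by 8.75 ± 0.44 on the log2 scale in mesenchyme (limma adjusted p = 0.00701), the lowest adjusted p of any gene named. With a pseudocount of 10 the difference of MIXL1 was -6.62. Of 15 gastrulation factors tested of 21 measured, 2 passed, both lower, MIXL1 among them (background 0.102%). Of the 15, 10 had both mesenchyme units below (background 24.9%) and 1 above, with a median of -4.88. MESP1 was used by the gates and is not in these counts. Mesoderm cells were chosen by high MESP1 and mesenchyme cells by low MESP1 and POU5F1. Factors that vary with MESP1 among cells were set apart by this choice, so the direction of the list is no independent evidence.

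The other factors of the list had large differences that did not pass. T was at most 0.51 and 4.43 RPM in mesenchyme of E13 and E16, and 0 to 2172 RPM (median 181) in E16 mesoderm, where 16 of 26 cells reached 10 RPM; the E17 cells had 0, 2.43 and 309.9 RPM. EOMES was at least 42.5 RPM in every E16 mesoderm cell (median 481, highest 976) and reached 10 RPM in 0 of 34 and 1 of 20 mesenchyme cells. LHX1, a LIM-homeobox factor of nascent mesoderm, was 27.9 to 2724 RPM (median 589) in E16 mesoderm and at 10 RPM in 3 of 20 E16 mesenchyme cells. The fitted differences of T, EOMES and LHX1 were -7.43 ± 0.90, -6.91 ± 0.94 and -8.07 ± 1.10, with limma adjusted p of 0.0511, 0.0527 and 0.0527. These sizes depend on the pseudocount of 1, and with a pseudocount of 10 they were -4.53, -4.91 and -6.15. T and EOMES entered the test through mesoderm alone and had to differ, so their adjusted p is no independent evidence. The mesoderm cells were not uniform in T, which 10 of the 26 cells of E16 held under 10 RPM, while EOMES was present in all of them. FOXH1, the Nodal-pathway cofactor, had means of 7.02 and 50.3 RPM against 686 and 515, and the RNA-binding LIN28A had nearly level means of 1217 and 1335 against 1305 and 1088 RPM (0.10 ± 0.24, adjusted p = 0.884).

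Paraxial genes were read at low levels. DLL3, a divergent Notch ligand of presomitic mesoderm, was the passing gene of 2 tested (-4.45 ± 0.49, limma adjusted p = 0.0369). Its medians were 4.22 and 1.62 RPM in mesenchyme and 98.96 and 79.4 RPM in mesoderm. DLL3 entered the test through mesoderm alone, so its passing is no independent evidence. MSGN1, a master factor of presomitic mesoderm, reached 10 RPM in 16 of 26 E16 mesoderm cells (highest 1518 RPM) and in 0 of 3 at E17, and its highest mesenchyme cell had 0.52 RPM. The Notch ligand DLL1 was listed at 0 in all 54 mesenchyme cells and reached 10 RPM in 9 of 26 mesoderm cells of E16. MEOX1, PAX3 and TCF15, genes of formed somites, had means under 5 RPM in all units.

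Some genes shared with the epiblast also lay on the mesoderm side. KHDC3L, known from the oocyte and early embryo, was 46.9 to 4874 RPM (median 553) in E16 mesoderm and 137.7 to 335 RPM at E17, and at most 22.7 RPM in any mesenchyme cell. All 29 mesoderm cells thus exceeded all 54 mesenchyme cells, and the same held for DPPA5, a pluripotency-associated RNA-binding protein, at 43.3 to 426 RPM in E16 mesoderm against at most 32.97 RPM. KHDC3L fell by 7.55 ± 0.73 and DPPA5 fell by 5.62 ± 0.58 in mesenchyme (limma adjusted p = 0.0369 and 0.0369). With a pseudocount of 10 their differences were -5.34 and -3.99. DPPA5 belongs to a family with near-identical copies, so its level is uncertain. The gates took mesenchyme only below 50 RPM of POU5F1, so genes that vary with POU5F1 among cells were held low there by the choice of cells. SALL1, a zinc-finger repressor, fell by 4.00 ± 0.41, from means of 262 and 189 RPM to 14.1 and 11.99, and the mitochondrial carrier UCP2 fell by 4.88 ± 0.49. Of 11 pluripotency genes tested, 2 passed lower (DPPA5 and SALL1, background 0.102%). DPPA5 entered the test through mesoderm alone, so its passing is no independent evidence. Of the 11, 6 had mesenchyme units below (background 24.9%) and 0 above (20.8%), with a median of -1.37. NANOG and SOX2 were low throughout, at means of 0.41, 12.7, 23.8 and 1.78 RPM and of 0.091, 4.27, 5.07 and 6.64 RPM, and DNMT3B was present in both classes with 88.5 and 158.4 against 306 and 308 RPM.

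**Figure D4:**
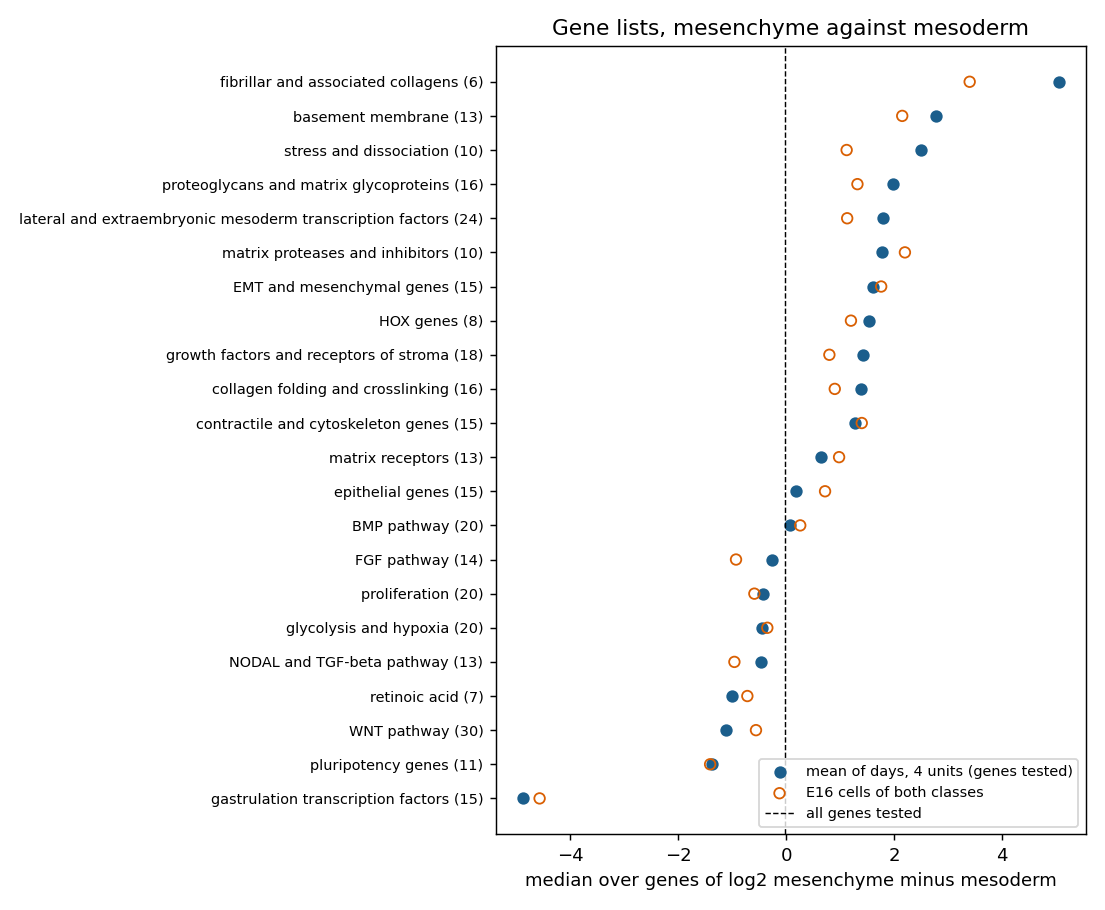
Each row is a list with at least 5 genes tested (number in brackets), and the x axis the median over its genes of the log2 difference, mesenchyme minus mesoderm. Filled points come from the 4 units and open points from the E16 cells of both classes; the dashed line is the median of all genes tested (-0.02), and collagens (5.05) and gastrulation factors (-4.88) are the ends of the scale.

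Signalling genes were placed unevenly within their families, and 0 of the genes tested in the BMP (20), WNT (30), FGF (14) and NODAL and TGF-beta (13) lists passed. Among BMP ligands, BMP5 was 5.32 to 282 RPM (median 89.05) in E13 mesenchyme and at 10 RPM or more in 12 of 20 cells of E16, against 3 of 26 and 0 of 3 mesoderm cells (adjusted p = 0.0734). BMP4 had means of 55.7 and 108.7 RPM in mesenchyme and 187.2 and 173 in mesoderm, so the ligands were not ordered alike. The pseudoreceptor BAMBI had 995 and 1034 RPM against 295 and 79.3. The list as a whole had 7 genes above (background 20.8%), 3 below (background 24.9%) and a median of 0.07.

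Of 30 WNT genes tested, 12 had both mesenchyme units below (background 24.9%) and 4 above (background 20.8%), with a median of -1.11. WNT8A, a ligand of the streak, had a median of 192 RPM in E16 mesoderm and was at most 5.31 RPM in any mesenchyme cell (adjusted p = 0.0739). WNT5A, a ligand of non-canonical signalling, was at least 26.6 RPM in every E16 mesoderm cell (median 401), and its receptor ROR2 had means of 101.6 and 137.8 RPM in mesoderm against 7.48 and 8.22 in mesenchyme. WNT5A was near 0 in E13 mesenchyme (median 0 RPM) but not at E16 (median 39.5, highest 477 RPM). WNT2 was the ligand with the opposite placing. It was 38.4 to 946 RPM (median 366) in all 34 E13 mesenchyme cells, and at E16 it reached 10 RPM in 6 of 20 mesenchyme and 3 of 26 mesoderm cells (adjusted p = 0.077). RSPO2, a secreted enhancer of WNT signalling, was placed like WNT2 (medians 141.2, 0.31, 0 and 0 RPM), while its relative RSPO3 was higher in E16 mesoderm (median 121.4 RPM) than in mesenchyme (33.2 and 0.17 RPM).

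Growth factors of stroma gave 0 passing genes of 18 tested, 7 above (background 20.8%) and 4 below (background 24.9%), with a median of 1.42. IGFBP3, a carrier of insulin-like growth factors, was 265 to 9744 RPM (median 2694) at E13 and 24.7 to 5463 (median 969) in E16 mesenchyme, and at most 74.3 RPM in mesoderm. With 52 of 54 cells above all mesoderm cells it missed the threshold narrowly (9.07 ± 1.16, limma adjusted p = 0.0511). Hepatocyte growth factor (HGF), made by mesenchyme for neighbouring epithelium in many organs, was 179 to 3054 RPM (median 870.2) at E13, 0 to 3162 (median 37.5) in E16 mesenchyme and under 10 RPM in all but 4 of the mesoderm cells. CSF1, the macrophage growth factor, reached 10 RPM in 25 of 34 and 10 of 20 mesenchyme cells against 1 of 26 and 0 of 3 mesoderm cells. PDGFRA, often used as a mesenchymal marker, had overlapping means of 223.1 and 104.7 RPM in mesenchyme and 129.3 and 37.1 in mesoderm. The apelin receptor APLNR, a gene of nascent mesoderm, had a median of 0.37 RPM in E13 mesenchyme, 236 in E16 mesenchyme and 706 and 920.3 in mesoderm, so that E16 mesenchyme lay between.

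TEK, the angiopoietin receptor known from endothelium, was high in mesenchyme, while 7 other markers fixed for endothelium and blood were near 0 in most cells. It was 66.1 to 543 RPM (median 312) at E13, 0 to 599 (median 347) in E16 mesenchyme, 0 to 39.3 (median 0) in E16 mesoderm and 0 in the 3 cells of E17. Of the 54 mesenchyme cells, 51 exceeded the highest mesoderm cell, and all 34 of E13 and 17 of 20 of E16 reached 50 RPM, with an adjusted p of 0.0511 by limma. These 7 markers (PECAM1, CDH5, TIE1, TAL1, LMO2, GATA1 and RUNX1) summed to at most 44.5 RPM in any E13 cell (median 0.50) and to a median of 0.79 RPM in E16 mesenchyme. In 1 E16 cell at least 2 of these 7 reached 50 RPM, and the highest sum was 1972.6 RPM. With TEK included the highest sum was 1980.2 RPM, so TEK was low in the cell with the highest sum. That cell was among the amnion-marker cells that stood apart above by high CGA and low TEK. KDR, a VEGF receptor of endothelium and nascent mesoderm that is not among the 7, reached 10 RPM in 18 of 34 and 11 of 20 mesenchyme cells and in 20 of 26 and 2 of 3 mesoderm cells.

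Intermediate filaments and adhesion genes did not follow a simple epithelial to mesenchymal order. VIM (vimentin) was 3734 to 12891 RPM (median 5218) in E13 mesenchyme, with medians of 1859 RPM in E16 mesenchyme, 269 in E16 mesoderm and 1122 in E17 mesoderm (adjusted p = 0.214). Keratin 18 (KRT18), a filament of simple epithelia, was also higher in the mesenchyme units, with means of 484 and 2883 RPM against 292 and 62.2, and so were KRT8 (434 and 1691 against 208 and 127.6 RPM) and KRT19 (577 and 1799 against 266 and 203.3 RPM). KRT8 and KRT18 have many near-identical copies in primate genomes, so their values are uncertain, and how reads were shared among them is not given in the sources used here. Mesenchyme of both days thus held vimentin and keratin transcripts together. CDH1 (E-cadherin) was at most 2.69 RPM in E13 mesenchyme and reached 10 RPM in 5 of 20 E16 mesenchyme and 10 of 26 E16 mesoderm cells. SNAI1, a repressor of E-cadherin active at the streak, had means of 10.6 and 4.79 RPM in mesenchyme against 76.96 and 20.3, and its relative SNAI2 had 211.6 and 180.3 against 110.5 and 116.7. Of 15 genes of the transition list and 15 epithelial genes tested, 0 passed, with medians of 1.61 and 0.18.

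Proliferation genes were expressed in both classes. Of 20 tested, 0 passed and 11 had both mesenchyme units below (background 24.9%), with a median of -0.43 against -0.02 over all genes. MKI67 had means of 136.1 and 123.7 RPM in mesenchyme and 201.9 and 281 in mesoderm (-0.87 ± 0.32, adjusted p = 0.369), and TOP2A had 347 and 414 against 749 and 730.4 RPM. The differences were below 1 on the log2 scale for 19 of the 20 genes, AURKB being the other.

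At E16, the day that holds both classes, 9661 genes outside the gate had at least 10 RPM in 1 class; 628 (6.5%) were at least 4-fold higher in mesenchyme and 436 (4.51%) at least 4-fold lower, by size and without a test. Fibrillar collagens were 4-fold higher in 4 of 6, basement membrane genes in 7 of 13 and matrix proteases and inhibitors in 7 of 14. Gastrulation factors were 4-fold lower in 16 of 20. Genes of these lists that vary with the gate genes were set apart by the choice of cells here as well. LUM differed by 8.13, POSTN by 7.60, PITX1 by 6.07, MIXL1 by -8.20 and KHDC3L by -8.40 (log2 of mean RPM + 1), near the values of the 4 units. Within title code MS101, with 9 and 12 cells, these were 8.18, 9.66, 8.0, -8.42 and -8.70. HGF, at 5.03 over all E16 cells, was 2.99 within MS101, and WNT2 went from 4.24 to 0.49, so that WNT2 did not differ by size there. By medians over cells the balance turned, with 428 genes higher and 914 lower, and without the 9 amnion-marker cells it was 602 and 663.

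E13 mesenchyme was set beside E16 mesenchyme, which are 1 unit each, so there is no test and 4-fold is a rule of size. Of 9233 genes with at least 10 RPM on either day, 633 (6.86%) were at least 4-fold higher at E16 and 1.55% at least 4-fold lower, counted on means. By medians over cells 393 were higher and 534 lower, so the balance turned with the summary over cells. The class genes differed in how level they were. PITX1 had means of 246 and 248.01 RPM, ENPEP 338 and 340.1, LUM 1370.2 and 1216, POSTN 1267 and 1199.8 and HAND2 170.6 and 170.6. Within the title codes of both days, however, the log2 difference, E16 minus E13, was -1.07 for PITX1, 1.04 for LUM and 1.67 for POSTN. By medians over cells it was -1.62 for POSTN. Without the 9 amnion-marker cells, some of which are in those codes, it was 0.24, 0.36 and 0.52 for PITX1, LUM and POSTN. CCDC80, COL4A1 and IL6ST were lower at E16 by means, with -1.83, -1.08 and -1.04. Within the title codes of both days these were -1.95, -1.21 and -0.28. Without the 9 amnion-marker cells they were -1.59, -0.89 and -0.69.

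Genes higher at E13 included secreted factors. FGF7, a growth factor that mesenchyme makes for epithelium, was 0 to 468 RPM (median 153.2) at E13, and 4 of 20 E16 cells reached 10 RPM (highest 195); the log2 difference E16 minus E13 was -3.54, and -7.28 without the 9 amnion-marker cells. HGF was under the 4-fold rule by means, with a log2 difference of -1.82, and of -1.04 without those cells (E16 mean 542.1 RPM). By medians over cells its difference was -4.50, and by means within the title codes of both days -2.16. Its means were 1118 ± 668 RPM (SD over 34 cells) and 315 ± 731 (20 cells), with 3162 RPM in the highest E16 cell. Every E13 cell and 10 of 20 E16 cells had 50 RPM or more. PRSS35, a serine protease homolog, had medians of 306 and 1.495 RPM, and TFPI2, an inhibitor of matrix-degrading serine proteases, of 42.8 and 0 RPM. LMO3, a LIM-domain cofactor, reached 10 RPM in 32 of 34 cells of E13 and 1 of 20 of E16 (-5.23). The others by the rule were the phosphatase subunit PPP2R2B (-4.85), the DNA methylation cofactor DNMT3L (-4.60), the scaffold IQGAP2 (-4.05), the Notch ligand JAG1 (-3.68), IQCK (-3.57) and the factor TOX3 (-3.52). In the 18 and 8 cells of title codes that hold both days, the difference of TOX3 was -1.67 and so under 4-fold. It was -4.29 without the 9 amnion-marker cells. The other 9 genes stayed past 4-fold within those codes.

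Genes higher at E16 included guidance and adhesion genes. SLIT2, a secreted guidance cue, was at most 0.19 RPM in the 34 cells of E13 and 0 to 1184 RPM (median 35.2) at E16, and its relative SLIT3 was at most 0.13 RPM at E13 with 15 of 20 E16 cells at 10 RPM. SEMA3D, another guidance cue, and CCBE1, a matrix protein needed for lymphatic vessels, reached 10 RPM in 10 and 14 of 20 E16 cells and in 0 of 34 E13 cells. CDH3 (P-cadherin) had medians of 0 and 98.3 RPM, and the homeobox gene HLX of 0 and 23.5 RPM. The further genes were thrombomodulin (THBD, 7.45), DNAH2, a dynein chain (6.75), FAM84B (6.66) and CGA (6.88). CGA, the glycoprotein hormone alpha subunit made by trophoblast, is itself among the markers that define the 9 amnion-marker cells. Its highest E16 cell had 56281 RPM, and without the 9 cells the difference was -0.68. The other 9 genes kept a log2 difference of 5.72 or more without them.

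Markers of the class also shifted between the days, in both directions. DCN had means of 397 ± 485 RPM at E13 and 91.8 ± 163.5 at E16, while DDR2 had 36.6 ± 51.5 and 342 ± 279.6 RPM, and 17 of the 20 E16 cells but 20 of the 34 E13 cells reached 10 RPM of DDR2. In the cells of title codes that hold both days, the log2 difference of DCN was -0.11 and that of DDR2 3.78. The E16 cells of these codes included amnion-marker cells, among them all those of MS132 and MS133. Without the 9 amnion-marker cells, over all codes, the differences were -1.99 and 3.43. The lower DCN of E16 thus depended on which cells were taken. KRT18 was at 1000 RPM or more in 18 of 20 E16 cells and 5 of 34 E13 cells. Of 17 epithelial genes at 10 RPM on either day, 11 were 4-fold higher at E16 and 0 lower (6.86% and 1.55% over all genes). Their median was 2.63 against 0.10 over all genes. EPCAM, an epithelial adhesion protein, was at most 37.9 RPM at E13 and at 10 RPM or more in 17 of 20 cells at E16. Without the 9 amnion-marker cells, 4 of 11 epithelial genes at 10 RPM were 4-fold higher and 0 lower, with a median of 1.53. Over all genes, 561 of 9083 were then 4-fold higher and 271 lower.

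**Figure D5:**
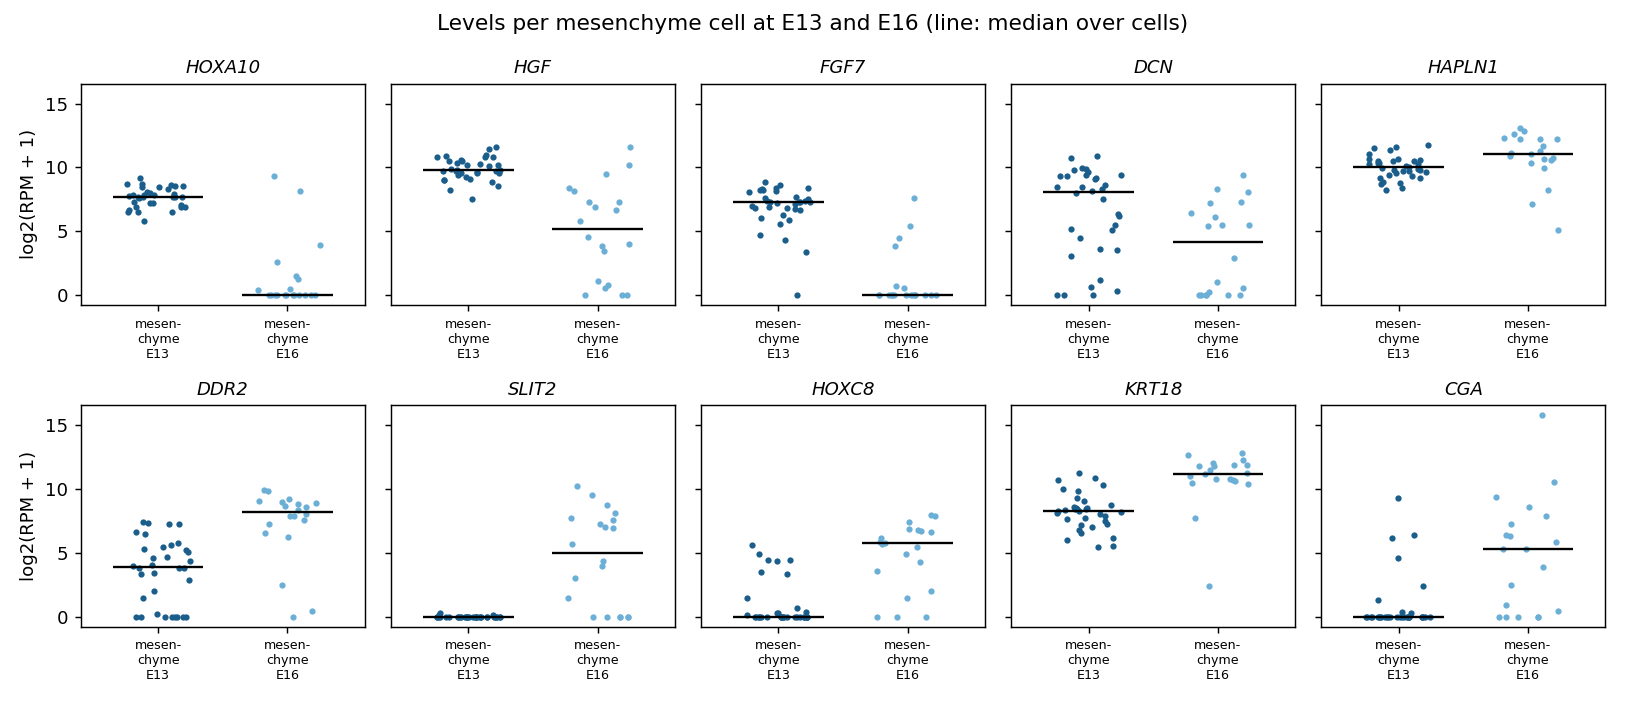
Each point is 1 mesenchyme cell of E13 (34) or E16 (20) and each line the median over cells, in log2(RPM + 1). HOXA10, HGF and FGF7 are lower at E16, while DDR2, SLIT2, HOXC8 and KRT18 are higher, and CGA at E16 spans from 0 to 56281.4 RPM.

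HOX genes, which encode position along the body axis, differed in set between the days. HOXA10 was 53.2 to 583 RPM (mean 229.2) in E13 mesenchyme, at or above 50 RPM in all 34 cells, and reached 50 RPM in 2 of 20 E16 mesenchyme cells (median 0, highest 632) and 1 of 26 E16 mesoderm cells. The log2 difference of means, E16 minus E13 mesenchyme, was -2.26, -1.44 without the 9 amnion-marker cells and -1.20 within the title codes of both days. The 5 markers of uterine stroma that are not HOX genes had a median sum of 0 RPM in the same E13 cells, and at most 166.1 RPM. The neighbouring genes HOXA9, HOXA11 and HOXA13 had means of 62.9, 25.4 and 28.2 RPM at E13 and 11.8, 8.48 and 6.52 RPM in E16 mesenchyme. HOXC8 went the other way, reaching 10 RPM in 6 of 34 E13 cells and 15 of 20 E16 mesenchyme cells, and in 0 of 29 mesoderm cells. HOXB3 had 4.54 and 141.3 RPM in mesenchyme of E13 and E16, and 56.1 and 0 RPM in mesoderm. Of 14 HOX genes at 10 RPM on either day, 9 were 4-fold higher in E16 mesenchyme and 2 lower (6.86% and 1.55% over all genes), and without the 9 amnion-marker cells 9 of 17 were higher and 0 lower. Of 8 tested between the classes 0 passed.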

How the data were processed

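Single cells were profiled by SC3-seq. The authors deposited 1 table of RPM, the reads of a gene scaled to the cell's total, for 26018 genes in 605 cells, with columns that sum to 988458 to 996773. The submitters' processing notes name cutadapt 1.3, TopHat 1.4.1 and Cufflinks 2.2.0, and no coordinates are given because the build is not given in the sources used here. RPM from 3' tags do not allow levels of different genes to be compared.

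The members and gene lists were chosen with earlier results of these data known. Cells of a class and day were averaged, and log2(mean RPM + 1) was fitted with limma 3.58.1 (R 4.3.3, trend), for genes with at least 10 RPM in at least 2 units, with Benjamini-Hochberg adjustment over all genes tested and a threshold of 0.05. At least 5 cells per unit had been planned, but mesoderm had 1 such unit, so at least 3 were used. Gate genes stayed in the fit and out of all counts. The labels name no animal, so the p-values may measure technical spread. On this scale the change of low genes is understated, and a gene that passed the filter through 1 class alone had to differ.

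Genes named from the fit were up to 15 per direction with separate unit values and a mean of 50 RPM or more in the higher class, called genes first. From lists, the largest changes and highest levels were taken. Between days, 10 genes per direction had at least 50 RPM in the higher day and 10 RPM in no fewer than 50% of its cells. Genes of these lists outside that rule (MSGN1, AURKB, NANOG and SOX2 among them) were chosen after their values were seen. Of the gene identifiers, 20272 matched RefSeq, which replaced 673 placeholder names.

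For 77 of the 83 cells whole reads were recovered from the RPM steps, with at least 99.79% of the values within 0.1 read of a whole number plus rounding. edgeR 4.0.16 and DESeq2 1.42.0 were run on these reads as alternatives. The fit was tested on simulated data. A few genes that the rules returned are not reported here.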

Additional observations from a re-analysis of the deposited data

How the results depend on the processing

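The number of genes called between the classes depended on most choices, whereas the 22 genes kept their direction in each alternative that tested them. The share called, 0.249% of the genes tested, was 1.37% with a pseudocount of 10, 2.42% with the mean of log2 values, 1.98% after quantile normalization, 7.45% with units by title code, 5.6% (494 genes) with DESeq2, 0.832% (69) with stricter gates (collagen gate mean of 6, MESP1 of 100 RPM) and 0.646% (57) without mesoderm cells of a collagen gate mean of 4. Without the mesenchyme cells that hold 2 amnion markers, an alternative chosen after seeing the data, it was 1.19%. It was 0% without the filter (0 genes by limma, 1432 at an unadjusted p under 0.05, against 1049 with it) and 0% with edgeR (893 at an unadjusted p under 0.05). Leaving out 1 unit gave 0.132% to 9.81%: 0.482% without E13 mesenchyme, 0.73% without E16 mesenchyme, 9.81% without E16 mesoderm and 0.132% (11 genes, all higher) without E17 mesoderm. There the lone unit of a class is assumed to vary like those of the other class. The split of higher and lower calls was 13 and 9 as reported, 381 and 382 by title code, 64 and 5 with stricter gates, 745 and 50 without E16 mesoderm, 16 and 24 without E13 mesenchyme and 15 and 44 without E16 mesenchyme. Units of at least 5 cells are the same as leaving out E17 mesoderm, and units of at least 1 cell are the units reported.

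For E16 beside E13 mesenchyme, 776 genes past 4-fold became 240 with a pseudocount of 10, 1329 without the filter and 1319 within the title codes of both days. For the classes at E16, 1064 became 359 with a pseudocount of 10. No paired analysis was possible because replicate numbers only name cells and E16 is the one day with both classes. The title codes, whose meaning is not given, are shared in part: with units by title code and the code as a block, chosen after seeing the data, limma called 1.66% of the genes tested, the 22 genes among them.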

Other observations

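Some immediate early genes, which respond to growth factors and to the handling of cells alike, had higher means in both mesenchyme units without passing the test. FOS had means of 527 RPM at E13 and 543 RPM at E16 against 59.6 and 8.61 RPM in mesoderm of E16 and E17, ATF3 had 81.9 and 83.2 against 7.07 and 9.88, and EGR1 had 175 and 159.7 against 36.2 and 13.7. Of 10 genes of the stress and dissociation list tested, 0 passed, 6 had both mesenchyme units above (background 20.8%) and 3 below (background 24.9%), with a median of 2.49. The limma adjusted p was 0.112 for FOS, 0.0764 for ATF3 and 0.12 for EGR1. The part of the trypsin step in these values was not tested.

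Genes of glucose use and of retinoic acid were divided between the classes, with 0 of 20 and 0 of 7 tested passing. SLC2A1, the main glucose transporter of embryonic cells, had means of 709 and 1276 RPM in mesenchyme and 249.8 and 145.2 in mesoderm. BNIP3, a mitophagy gene induced by low oxygen, had 100.4 and 444 RPM against 1768 and 1539, so these 2 genes of the glycolysis and hypoxia list lay in opposite directions (limma adjusted p = 0.104 and 0.166). The retinoic acid hydroxylase CYP26A1 had means of 1.16 RPM at E13 and 98.4 RPM in E16 mesenchyme, and 162.4 and 222.8 RPM in mesoderm. ALDH1A2, which makes retinoic acid, had 75.5 RPM at E13 and 3.29 RPM in E16 mesenchyme. In mesoderm it had 200.00 RPM at E16 and 21.85 RPM at E17, so the units of the classes overlapped. These means were carried by part of the cells: ALDH1A2 reached 10 RPM in 16 of 34 E13 cells, CYP26A1 in 10 of 20 E16 mesenchyme cells, and without the 9 amnion-marker cells the E16 mean of CYP26A1 was 35.9 RPM.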
